A study of Homo sapiens with 6 samples.

Results

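The ERBB receptors and their EGF-family ligands were followed across the 6 RNA-seq libraries of the HCT-116 experiment. The rows of this group were picked by gene symbol, and the members were chosen with earlier results of these data known. The 10 members were the receptors EGFR, ERBB2, ERBB3 and ERBB4 and the ligands AREG, EREG, TGFA, HBEGF, BTC and EGF. Each member had its own row, and they were 10 of 60546 gene identifiers. The established line HCT-116 comes from a human colon carcinoma and was labelled as wild type and as colon in every sample. HCT-116-PMSCV-GOLPH3 cells had received a viral construct carrying the GOLPH3 cDNA, and HCT-116-PMSCV-Vector cells had received the empty construct. All samples were grown in DMEM with fetal bovine serum and lysed in Trizol, and no drug treatment was compared. The methods name RNAiso Plus as the lysis reagent and state that the GOLPH3-overexpressing line was selected with puromycin. Each group had 3 samples, which the methods describe as different generations of a stable line. Each title also holds a P number, which was P8, P12 and P13 for GOLPH3 and P12, P11 and P13 for Vector. Whether these samples are separate cultures is not stated, so a p-value here measures the spread between samples, which may be technical.

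ERBB receptors are tyrosine kinases of the cell surface that pair with each other when a ligand binds. EGFR binds AREG, EREG, TGFA, HBEGF, BTC and EGF, whereas ERBB2 has no known ligand of its own and acts as a partner. ERBB3 has little kinase activity and signals through its partners, and ERBB4 is an active kinase that, like ERBB3, binds neuregulins. The ligands are made as membrane proteins and are released by shedding enzymes such as ADAM17. The receptors feed the RAS-MAPK and PI3K-Akt pathways, and EGFR is the target of antibodies used in colon cancer.

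Values are given as normalized reads, which are read counts divided by a size factor for each library. Every library held between 15708846 and 21900764 reads, and 3 reads, the limit that a count of 0 allows, correspond to 2.47 to 3.29 normalized reads. Such limits cover counting error only. The GOLPH3 transcript itself had 1629.5, 1272 and 1383 normalized reads in the GOLPH3 libraries and 1968, 1892 and 1472 in the Vector libraries, so the libraries labelled GOLPH3 were not higher. Its log2 change was -0.31 (standard error 0.27, limma adjusted p = 0.609). The groups are therefore named by their labels, and every direction below is that of GOLPH3 relative to Vector. The labelled cell type was checked against 12 colon epithelial markers, whose summed level was 62851 to 134424 normalized reads in GOLPH3 and 30024 to 41155 in Vector, with KRT20 at 0 everywhere. The general epithelial genes KRT8, KRT18, KRT19, EPCAM and CDH1 carried this sum. The intestinal genes VIL1, CDH17, CDX1, LGALS4 and CEACAM5 had at most 10.3 normalized reads in any library, and CDX2 had 247 to 358 in GOLPH3 and 184 to 897 in Vector. The Vector libraries also stood apart in 5 of 6 genes typical of HEK293 cells, a human embryonic kidney line. These 5, IRS4, LIN28B, NEFL, NEFM and UCHL1, summed to 0 to 5.37 normalized reads in GOLPH3 and 2946 to 8581 in Vector. The sixth, PAX2, had 112 to 134 in GOLPH3 and 88.7 to 148 in Vector, and all 6 together had 115 to 139.5 and 3035 to 8729. IRS4, for example, had 0 reads in the 3 GOLPH3 libraries and 1412, 1006 and 4831 normalized reads in the Vector libraries. The part of this difference in the results below was not tested.

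AREG, EREG and HBEGF are the ligands whose levels were high together in the libraries numbered P12, and the 250 bases before their RefSeq starts (GRCh38.p14) are shown for that reason. Capitals mark matches, on either strand, to 5 strings searched in every promoter window. These are TGACGTCA, the cAMP response element, TGANTCA, the AP-1 string, GGAATG, the TEAD string, CAGGTG, an E-box, and TATAAA, the TATA box. The windows lie at chr4:74444886-74445135 (plus strand), chr4:74364895-74365144 (plus strand) and chr5:140346604-140346853 (minus strand), and each is written 5′ to 3′ along its gene.
AREG: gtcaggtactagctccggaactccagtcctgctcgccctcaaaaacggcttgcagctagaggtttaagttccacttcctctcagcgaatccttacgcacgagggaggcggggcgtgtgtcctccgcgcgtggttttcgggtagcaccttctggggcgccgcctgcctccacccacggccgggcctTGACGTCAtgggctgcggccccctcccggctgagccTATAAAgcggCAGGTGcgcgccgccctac
EREG: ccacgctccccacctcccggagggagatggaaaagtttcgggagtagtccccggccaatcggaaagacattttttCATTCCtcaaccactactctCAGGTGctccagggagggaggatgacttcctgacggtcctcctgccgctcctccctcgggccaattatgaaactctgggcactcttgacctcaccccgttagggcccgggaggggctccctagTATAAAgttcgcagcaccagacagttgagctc
HBEGF: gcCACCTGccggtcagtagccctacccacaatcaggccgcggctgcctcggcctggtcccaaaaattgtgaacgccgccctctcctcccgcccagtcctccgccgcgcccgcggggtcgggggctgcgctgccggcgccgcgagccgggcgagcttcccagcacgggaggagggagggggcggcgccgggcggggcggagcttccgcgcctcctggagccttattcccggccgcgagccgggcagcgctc
AREG held TGACGTCA from position -65, TATAAA from -29 and CAGGTG from -19, where -1 is the last base before the start. EREG held GGAATG on the opposite strand from -175, CAGGTG from -155 and TATAAA from -32. HBEGF held a single match, CAGGTG on the opposite strand from -248, and no matches overlapped in the 3 windows. Over 35116 promoter windows of the same length, TGACGTCA was found in 1.65%, TGANTCA in 6.57%, GGAATG in 11.9%, CAGGTG in 17.5% and TATAAA in 10.7%. The RefSeq table held 9 of the 10 members, in 11 windows, and ERBB3 was not matched. CAGGTG was found in 5 of these 9 members, AP-1, TEAD and TATA strings in 3 each, and TGACGTCA in AREG alone. These counts take a match in any window of a member, unlike the shares per window, and EGFR and TGFA had an extra window each. All EGFR matches lay in its window from chr7:55109589, within the gene, and none in the window before the gene. These matches describe letters in a window and are not shown to be sites.

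Among the 10 members, ERBB4 fell in the libraries labelled GOLPH3 and 0 members rose, at an adjusted p under 0.05 in limma. TGFA came closest to a rise, at 2.16 times the Vector mean and an adjusted p of 0.0600. EGFR, ERBB2, ERBB3, AREG, EREG and HBEGF had higher means in GOLPH3, but their groups overlapped, and BTC and EGF had lower means with overlapping groups. The test was limma on log2(normalized reads + 1), run over 26536 genes that reached 1 normalized read in 3 or more libraries, with Benjamini-Hochberg adjustment over all of them. A change on this scale is understated for low genes. All 10 members passed this filter. ERBB4 met it through the 3 Vector libraries alone, the group in which it was high, and only 1 GOLPH3 library reached that value. Its call is therefore not read as support for anything beyond its own values. The 1 call among 10 members compares with 5.07% of all genes tested. An unadjusted p under 0.05 was reached by 3 members, ERBB3 and TGFA higher and ERBB4 lower, beside 17.6% of all genes. The groups did not overlap for 2 members, TGFA and ERBB4, beside 22.0% of all genes. None of these shares is given as a property of the family.

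**Figure D1:**
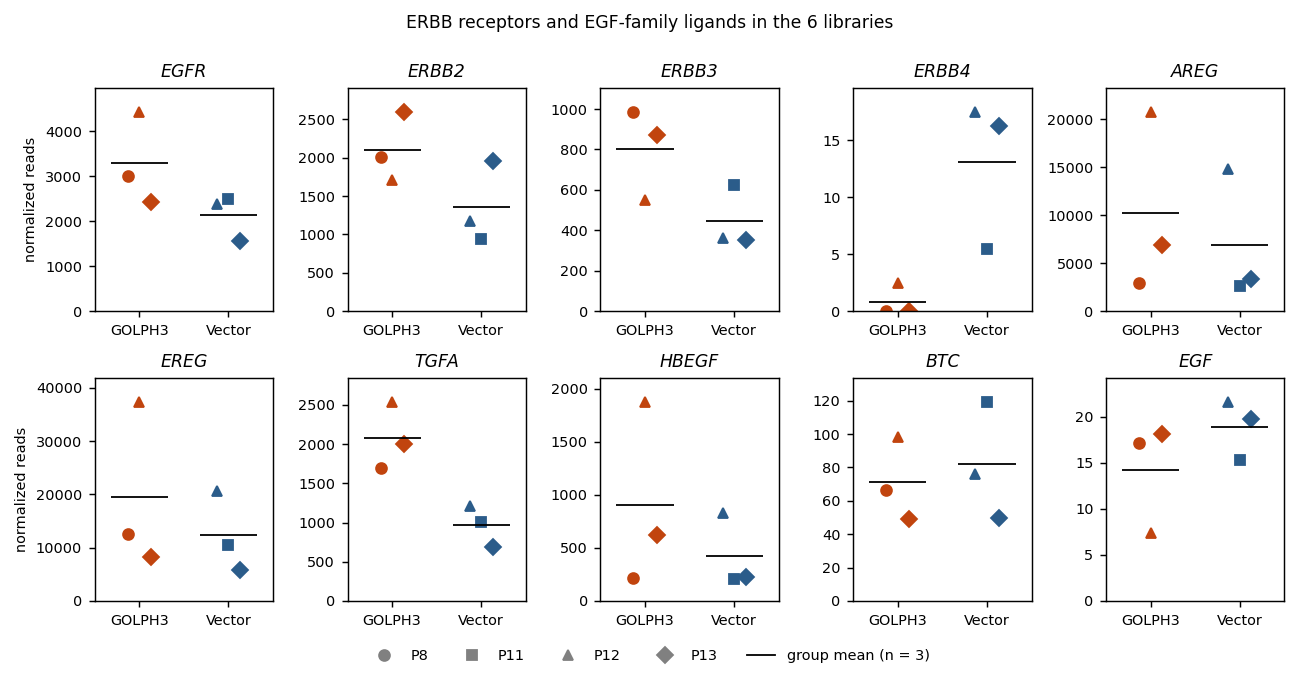
Normalized reads of each member in the 6 libraries, on a linear axis from 0 for each gene. Symbols give the number after P, orange is GOLPH3, blue is Vector and bars are group means (n = 3). The groups separate for TGFA and ERBB4, and both P12 triangles lie above all other symbols for AREG, EREG and HBEGF. For TGFA and ERBB4 the P12 triangle is also the highest within each group.

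EGFR (ENSG00000146648, chromosome 7 from 55019021 to 55211628, plus strand, GENCODE 29 on GRCh38) is the receptor shared by all 6 ligands. It had 3000.3, 4428 and 2435 normalized reads in GOLPH3 P8, P12 and P13 and 2374, 2494 and 1553 in Vector P12, P11 and P13. The lowest GOLPH3 library lay below the highest Vector library. The means were 3288 ± 1027 and 2140.4 ± 512 (SD, n = 3), with a log2 change of 0.60 (standard error 0.32, 95% confidence interval -0.09 to 1.30, adjusted p = 0.361). EGFR-AS1, transcribed from the opposite strand within the gene, had 2.19 to 25.6 normalized reads. Whether the counting used strand is not stated, so reads of such overlapping pairs cannot be told apart.

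ERBB2 (ENSG00000141736, chromosome 17 from 39687914 to 39730426, plus strand) had 2012, 1707 and 2594 normalized reads in GOLPH3 and 1182, 942 and 1958 in Vector. Vector P13 was higher than GOLPH3 P12, so the groups overlapped by that library. The means were 2104 ± 451 and 1361 ± 531 (SD, n = 3), and the log2 change was 0.68 (standard error 0.33, 95% confidence interval -0.04 to 1.39, adjusted p = 0.317). PGAP3 and MIEN1 overlap ERBB2 on the opposite strand, with 78.9 to 257 and 276 to 737 normalized reads. In both groups ERBB2 was highest at P13, the library number at which EGFR was lowest.

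ERBB3 (ENSG00000065361, chromosome 12 from 56076799 to 56103505, plus strand), the receptor with several docking sites for PI3K, had 985, 552 and 873 normalized reads in GOLPH3 and 363, 627 and 354 in Vector. The overlap came from GOLPH3 P12, which was lower than Vector P11. The log2 change of 0.85 (standard error 0.35, 95% confidence interval 0.10 to 1.6) had an unadjusted p of 0.0300 and an adjusted p of 0.218 in limma. The means were 803 ± 225 and 448 ± 155 (SD, n = 3).

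ERBB4 (ENSG00000178568, chromosome 2 from 211375717 to 212538841, minus strand) was close to the detection limit. It had 0, 3 and 0 reads in the GOLPH3 libraries and 17, 5 and 19 reads in Vector P12, P11 and P13, which are 0, 2.47 and 0 against 17.5, 5.48 and 16.3 normalized reads. Every Vector library was above every GOLPH3 library. The totals of 3 and 41 reads give a depth-corrected ratio of 13.8 for Vector over GOLPH3, with an exact 95% counting interval of 4.41 to 69.7 that covers counting error only. The fitted log2 change of -3.07 (standard error 0.75, 95% confidence interval -4.70 to -1.45, adjusted p = 0.0337) depends on the pseudocount of 1. With a pseudocount of 0.1 it was -5.31 with an adjusted p of 0.0834. The call was also lost without GOLPH3 P8 (adjusted p = 0.0757), GOLPH3 P13 (0.133), Vector P12 (0.167) or Vector P13 (0.145). An exact two-sided permutation test gave p = 0.1, the smallest that 3 libraries against 3 allow. ERBB4 moved in the same direction as 5 of the 6 HEK293-typical genes, all but PAX2. It was at 0 to 2.47 normalized reads where those 5 summed to 0 to 5.37, and at 5.48 to 17.5 where they summed to 2946 to 8581. The part of this difference in the fall of ERBB4 was not tested. In bulk samples fewer cells with a transcript and less RNA per cell cannot be told apart.

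The 3 genes whose pattern over the 6 libraries was most like that of ERBB4, among 12662 with a mean of at least 50 normalized reads, were EIF2B3, PIGM and ZADH2. Pearson's r of log2(normalized reads + 1) with ERBB4 was 0.997, 0.994 and 0.991, as a description over libraries that share 2 groups. EIF2B3, a subunit of a translation factor, had 259 to 392 normalized reads in GOLPH3 and 445 to 634 in Vector. At P11, the Vector library with the least ERBB4, each of the 3 genes was also lowest of the Vector libraries. The 3 genes were picked for this likeness, so the shared low at P11 follows from the choice.

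Levels of different members are given per kilobase of exon, with the exons of all annotated transcripts of a gene merged. The merged length was 12521 bases for EGFR, 10321 for ERBB2, 9039 for ERBB3 and 4963 for TGFA. Which transcripts the cells used was not measured, so orders, ratios and shares between genes depend on these lengths. The receptor order by median was EGFR at 197 normalized reads per kb, ERBB2 at 178, ERBB3 at 65.2 and ERBB4 at 0.305. EGFR and ERBB2 did not hold this order in every library, since the ratio of ERBB2 to EGFR per kb was 0.813, 0.468 and 1.29 in GOLPH3 P8, P12 and P13 and 0.604, 0.458 and 1.53 in Vector P12, P11 and P13. It was above 1 at P13 in both groups. The sum of the 4 receptors per kb varied less, relative to its mean, between libraries of a group than each receptor alone. It was 544, 580.3 and 542 in GOLPH3 and 346, 360.3 and 354 in Vector, or 555 ± 21.5 against 353 ± 7.37 (SD, n = 3). This sum was formed after the values were seen and was not tested. As summed normalized reads its ratio of group means was 1.56, as a share of all reads 1.44, and with TMM scaling 1.56. EGFR made up 35.0% to 60.9% of the receptor sum per kb, ERBB2 25.3% to 53.6% and ERBB3 10.5% to 20.1%, with overlapping ranges in the groups.

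**Figure D2:**
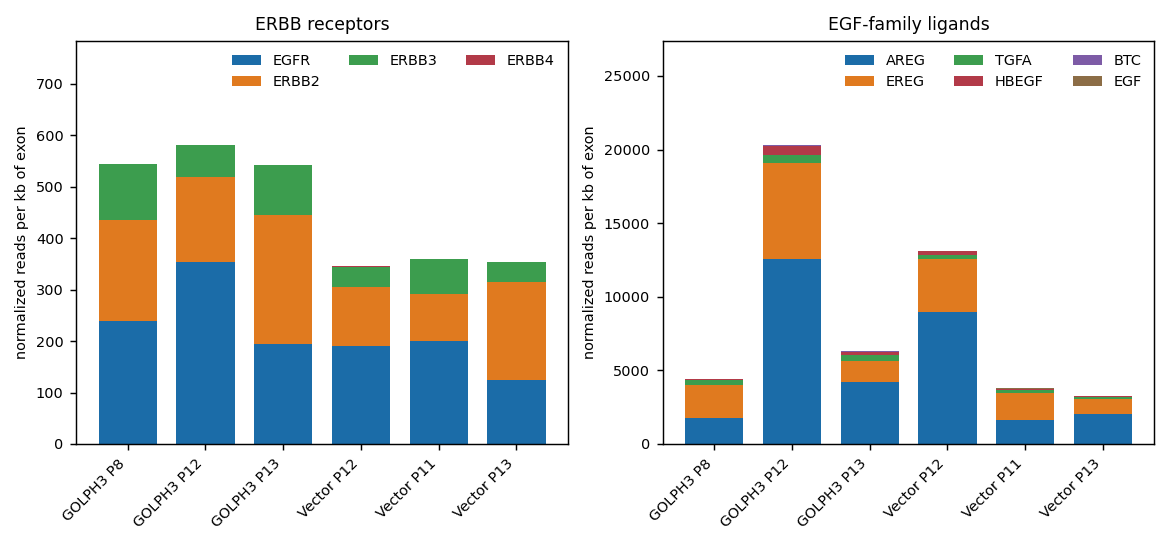
Stacked normalized reads per kb of exon, from 0, for the 4 receptors (left) and the 6 ligands (right) in each library. The receptor stacks are 542 to 580.3 high in GOLPH3 and 346 to 360.3 in Vector, while the ligand stacks are highest in the P12 library of each group, at 20290.4 and 13129.

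TGFA (ENSG00000163235, chromosome 2 from 70447280 to 70554193, minus strand), a ligand of EGFR, had 1696, 2543 and 2007 normalized reads in GOLPH3 and 1211, 1002 and 683 in Vector P12, P11 and P13. The lowest GOLPH3 library was above the highest Vector library. The means were 2082 ± 428 and 966 ± 266 (SD, n = 3), and the log2 change was 1.13 (standard error 0.31, 95% confidence interval 0.46 to 1.80). The unadjusted p was 0.00332 and the adjusted p 0.0600 in limma, so TGFA did not pass the threshold. DESeq2 on the recovered reads gave an adjusted p of 0.0259. An exact two-sided permutation test gave p = 0.1, the smallest possible here. TGFA-IT1, an intronic transcript of the same strand, had at most 4.12 normalized reads. Per kb, TGFA was above EGFR in all 6 libraries, by 1.43, 1.45 and 2.08 times in GOLPH3 and 1.29, 1.01 and 1.11 times in Vector. This order depends on the merged exon lengths.

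AREG (ENSG00000109321, chromosome 4 from 74445134 to 74455009, plus strand) encodes amphiregulin, and EREG (ENSG00000124882, chromosome 4 from 74365143 to 74388751, plus strand) encodes epiregulin. AREG had 2955, 20732 and 6945 normalized reads in GOLPH3 P8, P12 and P13 and 14792, 2676 and 3333 in Vector P12, P11 and P13. EREG had 12592, 37387 and 8288 normalized reads in GOLPH3 and 20600.1, 10461 and 5787 in Vector. In both genes the P12 libraries were the highest of the 6, and the other 4 overlapped. AREG changed by 0.56 (standard error 0.70, adjusted p = 0.733) and EREG by 0.55 (standard error 0.55, adjusted p = 0.667) on the log2 scale, both within the spread of the libraries. Without the GOLPH3 P12 library alone the log2 changes were -0.17 and -0.075, and without the P12 libraries of both groups they were 0.60 and 0.39.

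HBEGF (ENSG00000113070, chromosome 5 from 140332843 to 140346631, minus strand), the heparin-binding ligand of EGFR and ERBB4, followed the same pattern on another chromosome. It had 217, 1878 and 621 normalized reads in GOLPH3 and 831, 210.3 and 221 in Vector, again highest in the P12 libraries. The log2 change was 0.90 (standard error 0.70, adjusted p = 0.559). The P12 library was 4.19 times the mean of the other GOLPH3 libraries for AREG, 3.58 times for EREG and 4.48 times for HBEGF. In Vector the corresponding folds were 4.92, 2.54 and 3.85. These 3 were the members with both P12 libraries above the other 4, and 6.74% of all genes tested had that order. TGFA was also highest at P12 within each group, by 1.37 and 1.44 times the mean of the other libraries, but Vector P12 remained below every GOLPH3 library. ERBB2 and ERBB3 in P12 were at 0.741 and 0.594 times the other GOLPH3 libraries and at 0.815 and 0.741 times the other Vector libraries.

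**Figure D3:**
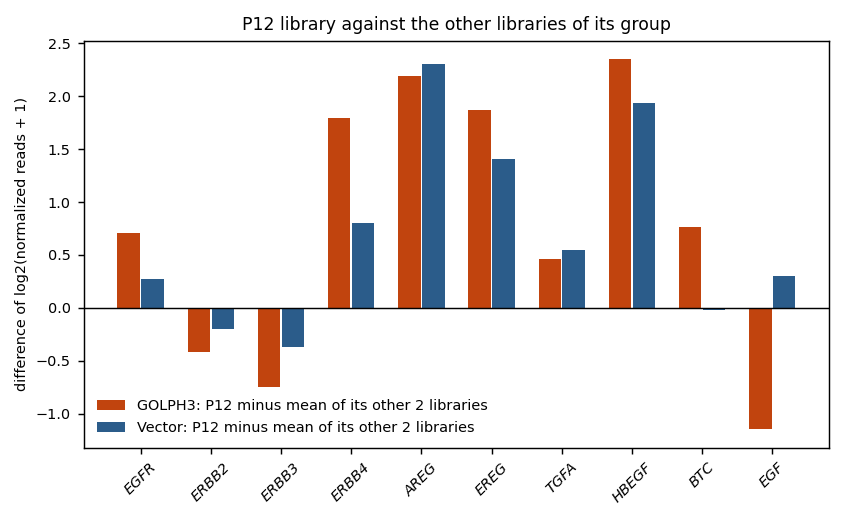
Difference of log2(normalized reads + 1) between the P12 library and the mean of the other libraries of its group, for each member, in GOLPH3 (orange) and Vector (blue). AREG, EREG and HBEGF lie between 1.40 and 2.35 in both groups, and ERBB2 and ERBB3 are below 0 in both.

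BTC (ENSG00000174808, chromosome 4 from 74744759 to 74794686, minus strand), betacellulin, had 66.6, 98.1 and 49.1 normalized reads in GOLPH3 and 76.2, 119 and 49.8 in Vector. The groups overlapped, and the log2 change was -0.16 (standard error 0.46, 95% confidence interval -1.17 to 0.85, adjusted p = 0.892). EGF (ENSG00000138798, chromosome 4 from 109912884 to 110012266, plus strand), the founding ligand of the family, had 17.2, 7.42 and 18.1 normalized reads in GOLPH3 and 21.6, 15.3 and 19.7 in Vector. Its log2 change was -0.46 (standard error 0.56, 95% confidence interval -1.69 to 0.76, adjusted p = 0.727), and the lowest value, in GOLPH3 P12, rested on 9 reads. These intervals are too wide to show that either gene was alike in the groups. BTC lies with EPGN, EREG and AREG in a stretch of 486 kb on chromosome 4, but for BTC and EPGN the P12 libraries were not both above the other 4, as they were for EREG and AREG. EPGN had 4.29, 5.77 and 4.27 normalized reads in GOLPH3 and 11.3, 9.86 and 2.57 in Vector, from 3 to 11 reads a library, and P12 was the highest library within each group.

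Per kb of merged exon, the ligand order by median was AREG at 3118, EREG at 2016, TGFA at 293, HBEGF at 139.6, BTC at 25.3 and EGF at 2.88 normalized reads per kb. In the order of all 10 members, EGFR and ERBB2 fell between TGFA and HBEGF, ERBB3 between HBEGF and BTC, and ERBB4 last. Only EREG and TGFA, and BTC and EGF, were neighbours with separate ranges over the 6 libraries. AREG exceeded EREG per kb in 4 of 6 libraries, with ratios of 0.814, 1.92 and 2.91 in GOLPH3 and 2.49, 0.888 and 2.0 in Vector. GOLPH3 P8 and Vector P11 were the libraries with more EREG. AREG made up 40.4% to 68.4% of the ligand sum per kb, EREG 23.03% to 49.7% and TGFA 1.86% to 7.70%. The sum itself was 4436, 20290.4 and 6295 in GOLPH3 and 13129, 3770.4 and 3267 in Vector, so the groups overlapped.

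The groups were also compared at the P numbers they share. The high P12 values of AREG, EREG and HBEGF come from these same libraries, so they give this comparison no separate support. At P12, GOLPH3 minus Vector on the log2 scale was 0.90 for EGFR, 0.53 for ERBB2, 0.60 for ERBB3 and -2.41 for ERBB4. The corresponding P13 differences were 0.65, 0.41, 1.30 and -4.11. Among the ligands, the P12 differences were 0.49 for AREG, 0.86 for EREG, 1.07 for TGFA and 1.18 for HBEGF, and at P13 they were 1.06, 0.52, 1.55 and 1.48. Each of these 8 members had the same sign in both pairs, as did EGF with -1.43 and -0.12, while BTC had 0.36 and -0.019. The share of all genes tested with the same sign was not counted, so this is not read as a family trait. Each difference compares 2 libraries and has no replicate.

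With the P number as a block, limma called 7 of the 10 members at an adjusted p under 0.05, beside 22.9% of all genes tested. TGFA, HBEGF, ERBB3, AREG, EGFR and EREG were higher and ERBB4 lower. The log2 changes were 1.31 for TGFA (adjusted p = 4.71e-08), 1.33 for HBEGF (adjusted p = 5.31e-07) and 0.95 for ERBB3 (adjusted p = 0.000235). They were 0.77 for AREG (adjusted p = 0.00245), 0.77 for EGFR (adjusted p = 0.00107), 0.69 for EREG (adjusted p = 0.0165) and -3.26 for ERBB4 (adjusted p = 0.00174). ERBB2 had a log2 change of 0.47 (adjusted p = 0.0647). P8 and P11 occur in 1 group each, so this fit rests on the P12 and P13 pairs alone with 1 residual degree of freedom per gene, and its spread is borrowed across genes. It is an alternative, since the labels do not say what the P number shares between groups. Deviations from the group mean correlated at 0.26 for both P12 and P13 pairs, below the 0.33 of GOLPH3 P8 with Vector P11, which share no number.

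**Figure D4:**
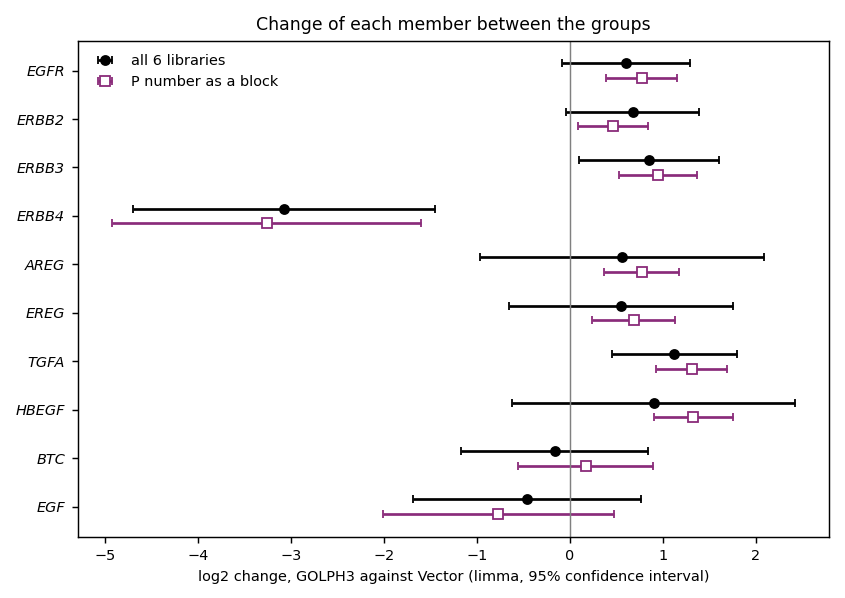
Log2 change of each member, GOLPH3 against Vector, with limma 95% confidence intervals, from all 6 libraries (black circles) and from the fit blocked on the P number (open squares). With the block the intervals of the 3 ligands high at P12 narrow most, and HBEGF moves from 0.90 to 1.33.

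The other genes of the ERBB pathway were taken from 5 lists with 95 genes, of which 93 were tested. Across them 3 were higher and 4 lower at an adjusted p under 0.05, or 7.53% beside 5.07% of all genes tested. An unadjusted p under 0.05 was reached by 19 (20.4%), beside 17.6% of all genes. The median log2 change was 0.00, against 0.02 over all genes tested. Called were 1 of 11 shedding genes (9.09%), 3 of 39 adaptors and relays (7.69%) and 3 of 19 tested negative regulators (15.8%). None of the 4 tested other ligands or 20 endocytosis genes was called. With 5.07% of all genes called, lists this small can hold 0 calls, so where the calls lay is not read as a result.

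Of the 4 tested other ERBB ligands, 0 passed the adjusted threshold in limma, 0 had an unadjusted p under 0.05, and edgeR and DESeq2 called 0. Their median log2 change was -0.49. NRG1, a neuregulin that binds ERBB3 and ERBB4, had 447, 233 and 508 normalized reads in GOLPH3 and 478, 859 and 354 in Vector, with a log2 change of -0.48 (adjusted p = 0.589). NRG2 had 10.7 to 23.5 normalized reads in GOLPH3 and 10.96 to 56.6 in Vector, with a log2 change of -0.67 (adjusted p = 0.650).

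Of 11 genes of ligand shedding and processing, RHBDF2 rose and none fell, with a list median of 0.43. RHBDF2 encodes iRhom2, which escorts ADAM17 to the cell surface, and had 1515, 1252 and 1543 normalized reads in GOLPH3 and 605, 577 and 779 in Vector. The groups did not overlap, and the log2 change was 1.14 (standard error 0.28, adjusted p = 0.0340). The call was lost without any 1 of the 6 libraries, at adjusted p-values of 0.0601 to 0.201. ADAM17 itself, named after its values were seen, had a log2 change of 0.27 (adjusted p = 0.765). As with AREG, EREG and HBEGF, its P12 libraries were the highest, at 2353 and 1682 normalized reads against 837 to 1289 in the other 4. That order was found in 6.74% of all genes tested. ADAM19 of the same list, also named after its values were seen, had its P12 libraries lowest, at 883 and 889 against 1497 to 2199.

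Of 39 adaptors and signal relays, GRB7 rose and PIK3R3 and GAB1 fell, with a list median of -0.12. GRB7, an adaptor that binds ERBB2 and ERBB3, had 596, 891 and 1192 normalized reads in GOLPH3 and 439.5, 222 and 297 in Vector, a log2 change of 1.48 (adjusted p = 0.0347). PIK3R3, a regulatory subunit of PI3K, had 62.3, 37.1 and 50.2 normalized reads in GOLPH3 and 164, 134 and 262 in Vector, a log2 change of -1.85 (adjusted p = 0.0213). GAB1, a docking protein downstream of EGFR, had 157, 44.5 and 81.1 normalized reads in GOLPH3 and 258, 298 and 283 in Vector, a log2 change of -1.74 (adjusted p = 0.0443). In none of these 3 genes did the groups overlap. Each call was lost without GOLPH3 P12, GOLPH3 P13, Vector P12 or Vector P13, and those of GRB7 and GAB1 also without Vector P11. The adjusted p was then 0.0519 to 0.171 for GRB7, 0.0660 to 0.127 for PIK3R3 and 0.0884 to 0.143 for GAB1.

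Of 19 tested negative regulators, CBLC rose and SPRY2 and LRIG3 fell, with a list median of -0.01. SPRY2, an inhibitor of receptor signalling to RAS, had 126, 140.2 and 185 normalized reads in GOLPH3 and 850.2, 521 and 1297 in Vector, a log2 change of -2.48 (standard error 0.37, adjusted p = 0.00138). LRIG3, a membrane protein related to the ERBB antagonist LRIG1, had 253, 224 and 203 normalized reads in GOLPH3 and 1019, 498 and 941 in Vector, a log2 change of -1.79 (adjusted p = 0.00798). CBLC, a ubiquitin ligase of the CBL family, had 609, 1107 and 978 normalized reads in GOLPH3 and 331, 148 and 245 in Vector, a log2 change of 1.92 (adjusted p = 0.00876). Leaving out any 1 library kept the calls of SPRY2 and CBLC, and LRIG3 lost its call without Vector P12 (adjusted p = 0.0857) or Vector P13 (0.0574). ERRFI1, a feedback inhibitor of EGFR named after its values were seen, had 11834, 43377 and 15899 normalized reads in GOLPH3 and 33884, 7318 and 7272 in Vector. Its P12 libraries were again the highest of the 6, and its log2 change was 0.73 (adjusted p = 0.587, or 0.0130 when blocked on the P number). That P12 order was found in 6.74% of all genes tested. Also named after their values were seen, RNF41 and SPRED2 of this list shared it, while PTPRJ had both P12 libraries below the other 4.

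None of 20 genes of receptor endocytosis and sorting passed the adjusted threshold in limma, beside 5.07% of all genes tested. An unadjusted p under 0.05 was found for 3 (15%), beside 17.6% of all genes, and edgeR and DESeq2 called 0. The list median was 0.04. HGS, which sorts ubiquitinated receptors, had 3374, 6728 and 5138 normalized reads in GOLPH3 and 3244, 1545 and 3103 in Vector, a log2 change of 0.97 (adjusted p = 0.180). EPN1, an endocytic adaptor, had a log2 change of 0.89 (adjusted p = 0.273), and its groups overlapped. With the P number as a block the adjusted p was 0.000188 for HGS and 0.00626 for EPN1. Across the alternatives the adjusted p of HGS ranged from 0.000188 to 0.642.

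**Figure D5:**
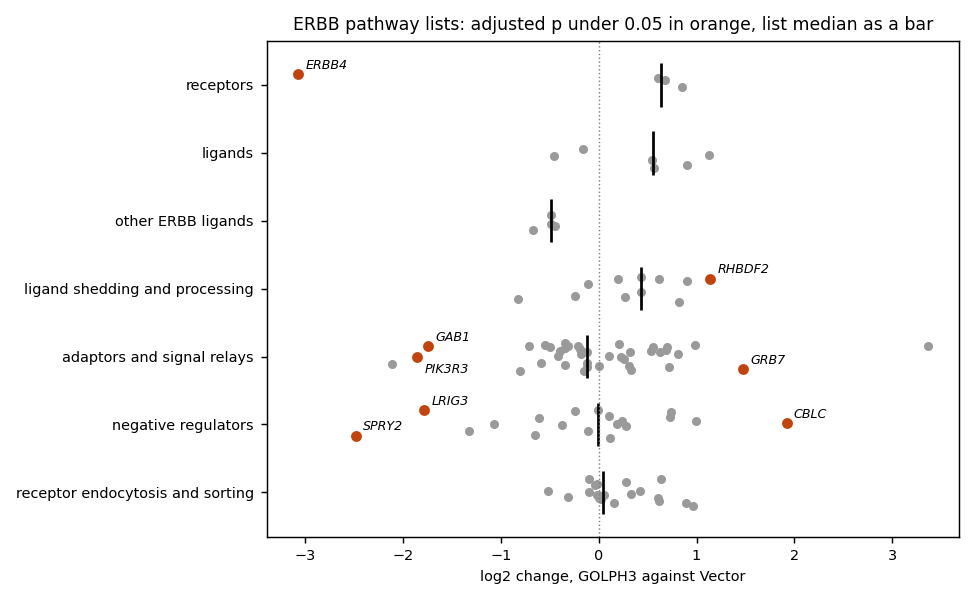
Log2 change, GOLPH3 against Vector, of every tested gene in the receptor, ligand and 5 pathway lists. Each point is a gene, orange points have an adjusted p under 0.05, and black bars are list medians. The 8 named points are ERBB4 and the 7 called pathway genes, 3 of them above 0 and 5 below.

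The mesenchymal and colon epithelial marker sums differed between the groups beside these genes, while the leukocyte and endothelial sums overlapped. The summed level of 14 mesenchymal markers was 1803 to 2220.4 normalized reads in GOLPH3 and 4116 to 7290.4 in Vector, with VIM, CDH2, ZEB1 and ZEB2 lower at an adjusted p under 0.05 and DCN at 0 everywhere. VIM, at 5.37 to 41.2 against 1653 to 3407, carried much of the difference in the sum. Of the 12 tested markers, 5 had a positive log2 change, among them COL1A1 at 0.91 (adjusted p = 0.151) and THY1 at 1.57 (adjusted p = 0.196). Of the 10 tested colon epithelial markers, KRT18 and KRT19 were higher. Leukocyte markers summed to 3.30 to 23.5 normalized reads in GOLPH3 and 22.6 to 60.9 in Vector, with CD3E at 0 everywhere. Of the 4 tested leukocyte markers, 3 had a positive log2 change and 1 was lower at an adjusted p under 0.05 in limma. Endothelial markers summed to 24.7 to 44.01 and 23.7 to 34.3. Their part in the values of the ERBB family was not tested.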

How the data were processed

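RNA-seq covered 3 samples of HCT-116-PMSCV-GOLPH3 and 3 of HCT-116-PMSCV-Vector. The processing notes name fastp 0.20.0, HISAT2 2.1.0, Cufflinks, featureCounts 1.6.1, DESeq2 and GRCh38. The deposited signal is a count of reads per gene, scaled by the authors with 1 size factor for each library and not corrected for length. All nonzero values up to 1000 reads lay within 0.05 of a whole number of reads (100%), so the reads could be recovered, with 15708846 to 21900764 per library. Of 60590 rows, 44 repeated an identifier and were summed with its other row, and 58367 of 60546 identifiers (96.4%) were in GENCODE 29. No column was left unused.

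limma 3.58.1 (R 4.3.3) with a mean-dependent prior variance was applied to log2(value + 1) for genes reaching a value of 1 in 3 or more libraries, two-sided, with Benjamini-Hochberg adjustment. edgeR 4.0.16 and DESeq2 1.42.0 on recovered reads, quantile normalization, a pseudocount of 0.1, other filters, blocks and left-out libraries were alternatives. The script was tested on simulated data. No pair of libraries within a group agreed within sampling noise (chi-square per degree of freedom at least 65.3), so none was treated as a library deposited again. This says nothing on whether they are biological replicates.

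The members, gene lists and tests were chosen with earlier results of these data known. All 10 members and GOLPH3 are named, with each called pathway gene or, in a list without one, the 2 with the smallest p, and the 3 genes most like a called member. Further genes are named as chosen after their values were seen.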

Additional observations from a re-analysis of the deposited data

Results flagged for a closer look

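BTC and NRG1 differed in sign between the P numbers that both groups share. For BTC, GOLPH3 minus Vector on the log2 scale was 0.36 at P12 and -0.019 at P13. For NRG1 it was -1.03 at P12 and 0.52 at P13. Each value compares 2 libraries, and the difference between the pairs was not tested.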

How the results depend on the processing

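Of 10 members, 1 was called. The count was 0 with edgeR, quantile normalization, a pseudocount of 0.1, a value of at least 1 in every library, or without both P12 libraries. It was 2 with DESeq2 and with the P number as a covariate (ERBB4 and TGFA in each), 7 with the P number as a block, and 0 to 1 with a library left out, being 1 without GOLPH3 replicate 2 (P12) or Vector replicate 2 (P11) and 0 without any other. ERBB4 was not tested in edgeR, with a value required in every library, or without both P12 libraries. In its other fits its adjusted p was 0.00174 to 0.167. The 7 called pathway genes became 11 with DESeq2 or the P covariate, 28 with the P block, 4 with the stricter filter, 0 without both P12 libraries and 2 to 7 with a library left out, 2 without Vector replicate 1 (P12) or 3 (P13) and 3 without GOLPH3 replicate 2 (P12) or 3 (P13). The 1346 calls over all genes became 405 with the stricter filter, 6082 with the P block, 2399 with the P covariate, 256 without both P12 libraries and 459 to 1528 with a library left out, 459 without Vector replicate 1, 481 without Vector replicate 3, 881 without GOLPH3 replicate 3 and 895 without Vector replicate 2. The log2 change reversed for AREG (-0.17) and EREG (-0.075) without GOLPH3 replicate 2 (to highest values of 1.33 and 1.02 without Vector replicate 1), for BTC to 0.066 with quantile normalization and 0.17 with the P block, for BTC with a library left out (-0.47 to 0.15, at 0.072 without GOLPH3 replicate 3), and for EGF to 0.019 without both P12 libraries. The cause was not tested. RHBDF2 was called in 7 of its 16 alternatives, GRB7 in 7, GAB1 in 5, PIK3R3 in 11, LRIG3 in 13, and SPRY2 and CBLC in 15 each. Depth limits ERBB4 and EGF, which had few reads.

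With the replicate block, 0 members, 4 pathway genes and 1081 genes overall were called, and ERBB4 had an adjusted p of 0.0983. The replicate numbers were not taken to pair the samples: the deviations of same-numbered libraries correlated at -0.23, -0.15 and 0.26 over 26536 genes. Libraries sharing a P number correlated at 0.26 for P12 and 0.26 for P13. The highest correlation, 0.33, was that of GOLPH3 P8 with Vector P11, which share neither number.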

Other observations

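HRAS, a GTPase downstream of the ERBB receptors, was named after its values were seen. It had 21.5, 600.3 and 572 normalized reads in GOLPH3 P8, P12 and P13 and 15.4, 6.57 and 55.8 in Vector P12, P11 and P13. GOLPH3 P8 lay among the Vector libraries and the other GOLPH3 libraries lay above all of them. Its log2 change was 3.37 (standard error 1.11, adjusted p = 0.120 in limma), and DESeq2 on the recovered reads called it while edgeR did not. With the P number as a block its log2 change was 4.26 (adjusted p = 8.87e-15), from the P12 and P13 pairs alone. SPRY4 and SPRY1, relatives of SPRY2, were also named after their values were seen. SPRY4 had 2883, 5619 and 3153 normalized reads in GOLPH3 and 3026, 1453 and 1483 in Vector, so its groups overlapped. Its log2 change was 0.99 (adjusted p = 0.174 in limma, or 2.37e-05 when blocked on the P number), opposite in sign to the called fall of SPRY2. SPRY1 had the sign of SPRY2, with 90.2 to 118 normalized reads in GOLPH3 and 176 to 252 in Vector. Its log2 change was -1.07 (adjusted p = 0.112 in limma, or 0.00140 when blocked on the P number), and DESeq2 called it while edgeR did not.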
